A study of Mus musculus with 24 samples.

Results

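Total RNA of bone-marrow-derived macrophages was compared between the cultures of batch 3 and those of batch 2, across all genes outside chromosomes X and Y. Libraries were assigned by their batch labels: 8 total RNA libraries, 4 in each batch, of 24 libraries in the series, which also holds 4 total RNA libraries of batch 1 and a ribosome footprint library for every culture. Batch 3 held KO5, KO6, WT5 and WT6, and batch 2 held KO2, KO3, KO4 and WT4. KO cultures came from Apobec1-/- mice and WT cultures from mice with the functional gene, all of strain C57BL/6J, and no culture had any other treatment in the labels. In every group, marrow of mice aged 6 to 12 weeks was grown for 7 days with 20 ng/mL M-CSF. The labels do not say what set the batches apart, or whether cultures of a group were grown from different animals. The p-values therefore cover only the spread between these cultures, part of which may be technical. The series was designed to ask how APOBEC1, an enzyme that deaminates cytidines of RNA to uridines, affects translation. The genotype was therefore kept as a term in the model, and the batch difference was read after it.

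M-CSF signals through its receptor CSF1R and turns marrow progenitors into macrophages. On the way, cells lose the stem cell factor receptor KIT and the serine proteases of granulocyte and monocyte progenitors, and gain F4/80, Fc receptors, complement proteins and receptors that clear dead cells. Mature macrophages also keep a low tone of interferon-stimulated genes without infection. Their sterol balance is set by SREBP2, which raises cholesterol synthesis and uptake, and by LXR, which raises cholesterol export through ABCA1 and APOE.

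The 8 libraries held 5077478 to 7440108 counts in genes in batch 2 and 6331272 to 7114862 in batch 3. In every sentence below, 4 values of a batch follow the order KO2, KO3, KO4, WT4 or KO5, KO6, WT5, WT6, and CPM are counts scaled to a common library size with TMM factors. Apobec1 (chromosome 6, 122577792 to 122603024 in GRCm38.p6) measured 1227, 1053, 1338 and 369.6 CPM in batch 2 and 628, 737, 327 and 332 CPM in batch 3. KO cultures held more Apobec1 RNA than the WT cultures of their batch, so the level of this transcript over the whole gene does not show the deletion. Its footprints ran the other way, with 16, 7 and 22 counts in KO2, KO3 and KO4 against 353 in WT4, and 2 and 0 in KO5 and KO6 against 13 and 3 in WT5 and WT6. Its batch difference was called (log2 fold change -0.59 ± 0.16 (SE), edgeR adjusted p = 0.0109), but not without KO5 (adjusted p = 0.0774), and the groups overlapped. The batches differed in other ways. Reads outside any counted feature made up 14.1% to 19.2% of reads in batch 2 and 4.32% to 5.53% in batch 3, and reads without a single alignment 27.8% to 36.8% and 36.9% to 51.2%. Batch 2 libraries held 2 to 6 counts of Xist and 155 to 639 of each of the Y-linked genes Ddx3y, Eif2s3y, Kdm5d and Uty, whereas batch 3 libraries held 172 to 386 counts of Xist and 0 or 1 of each Y-linked gene. The sex of the animals and the batch cannot be told apart.

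Batch took most of the variation. The first principal component of the 8 libraries carried 66.1% of the variance, with batch 2 at -45.1 to -32.5 and batch 3 at 34.6 to 47.5. The next carried 13.6% and set WT4 (-42.2) apart from KO2 (20.9) and KO4 (22.9). WT4 is the sole WT culture of batch 2, so what is particular to that culture and what is particular to WT cells in batch 2 cannot be told apart.

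Of 10906 genes tested, 2241 were called higher in batch 3 (20.5%) and 2314 lower (21.2%) at an adjusted p below 0.05, in all 41.8%. The edgeR counts hold 470 genes at least 2-fold higher and 889 at least 2-fold lower, and past 8-fold 25 higher against 131 lower. The median log2 fold change over all tested genes was 0.01, with the 5th percentile at -1.40 and the 95th at 0.97. The large changes were thus mostly losses, although higher and lower calls were nearly equal in number. CPM did not overlap between the batches in 4483 genes (41.1%). Among the 4555 called genes, 4536 (99.6%) had the same sign of difference in the KO cultures and in the WT cultures taken alone. Those genes were called from these same libraries, so this agreement was largely fixed by the call. The WT side of batch 2 is WT4 alone, and the share over all tested genes was not taken. Without KO5 the calls came to 1342 higher and 1559 lower.

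**Figure D1:**
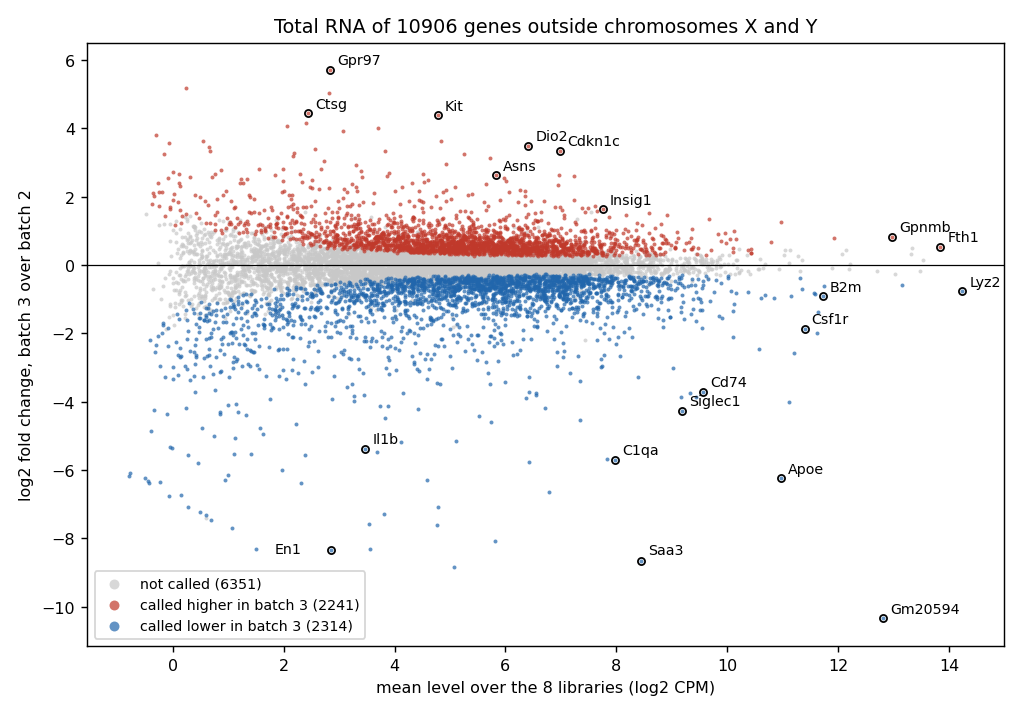
Each point is one tested gene, with its mean level over the 8 libraries on the x axis (log2 CPM) and its log2 fold change of batch 3 over batch 2 on the y axis. Called genes spread further down (Gm20594 at -10.34, Apoe at -6.24) than up (Gpr97 at 5.71).

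Genes of the mature macrophage fell. In the macrophage identity list, 16 of 18 tested members were called lower and none higher, with a median log2 fold change of -1.52. Csf1r, the M-CSF receptor, measured 4411, 3849.6, 4361 and 4239.7 CPM in batch 2 and 989, 1327, 1023 and 1314 CPM in batch 3. The 4 batch 2 values sit in a narrow band, and the nearest values of the 2 batches were 2.90-fold apart (log2 fold change -1.86 ± 0.15 (SE), edgeR adjusted p = 8.18e-06). Siglec1, a sialic acid receptor of macrophages, measured 1221, 789, 1356 and 1048 CPM in batch 2 and 49.3, 77.3, 39.3 and 56.6 CPM in batch 3. Its groups were far apart (log2 fold change -4.26 ± 0.24 (SE), edgeR adjusted p = 1.57e-06). Emr1, which encodes F4/80, measured 4604, 4005, 4453 and 6739 CPM in batch 2 and 1276, 1222, 1521 and 1169.7 CPM in batch 3. It stayed an abundant transcript in batch 3 and was lower in all 4 cultures (log2 fold change -1.99 ± 0.15 (SE), edgeR adjusted p = 6.62e-06). The list also holds the receptor kinase Mertk, which binds dying cells (-3.03), the Fc receptor Fcgr1 (-2.65), Itgam, which encodes CD11b (-1.56), and the LPS co-receptor Cd14 (-1.53), all called lower. The scavenger receptor Cd163 was not called (edgeR adjusted p = 0.0562), and neither was Cx3cr1, the fractalkine receptor (log2 fold change -0.96 ± 0.35 (SE), edgeR adjusted p = 0.0553). Cx3cr1 measured 267, 219, 264 and 86.8 CPM in batch 2 and 84.6, 84.9, 92.6 and 116 CPM in batch 3, so that WT4 alone lay among the batch 3 values, and without WT4 it was called (log2 fold change -1.56, adjusted p = 6.82e-05). In these bulk samples, fewer cells of a type and less RNA per cell cannot be told apart.

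Lyz2, the macrophage lysozyme and the called gene with the most counts, measured 17900.1, 22677, 17047 and 35874 CPM in batch 2 and 12515, 12221, 22530.5 and 13801 CPM in batch 3, and the groups overlapped through WT5. Its call (log2 fold change -0.76 ± 0.18 (SE), edgeR adjusted p = 0.00756) was lost without WT4 (adjusted p = 0.0602). Lyz1, a near-identical copy that can share its reads, followed the same order of cultures within each batch, and its call was lost without WT4 (adjusted p = 0.155), KO3 (0.0536) or KO6 (0.0596). The summed CPM of the whole identity list ran from 34899 to 55977 in batch 2 and from 17998 to 28422 in batch 3.

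Complement genes showed the largest median change among the lists, -3.74, and all 9 tested members were called lower. The 3 chains of C1q, which starts the classical pathway, lie next to each other on chromosome 4 and fell together. C1qa (chromosome 4, 136895916 to 136898844) measured 687, 252, 736 and 307 CPM in batch 2 and 8.06, 7.86, 10.6 and 8.63 CPM in batch 3. Batch 2 was split between KO2 and KO4 on one side and KO3 and WT4 on the other, and even the lower pair was far above batch 3 (log2 fold change -5.70 ± 0.45 (SE), edgeR adjusted p = 7.06e-05). C1qb (-3.87) and C1qc (-3.85) kept the same split within batch 2. C3, the central component, measured 1165, 1188, 917 and 1489 CPM in batch 2 and 83.1, 94.0, 80.7 and 113 CPM in batch 3 (log2 fold change -3.74 ± 0.16 (SE), edgeR adjusted p = 1.80e-07). Factor B, encoded by Cfb, measured 23.3, 45.8, 13.4 and 108 CPM in batch 2 and 0.733, 0.965, 0.788 and 0.308 CPM in batch 3, with an 8.04-fold range within batch 2. C3ar1, the C3a receptor, was lower as well (-1.33).

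MHC class II genes fell in 8 of 10 tested members, at a median log2 fold change of -2.08. Cd74, the invariant chain that guides class II molecules, measured 2018, 654, 2024 and 902 CPM in batch 2 and 64.4, 113, 114 and 132 CPM in batch 3. As with C1q, KO2 and KO4 were high and KO3 and WT4 lower within batch 2, yet no batch 2 value reached down to batch 3 (log2 fold change -3.70 ± 0.49 (SE), edgeR adjusted p = 9.64e-04). H2-Ab1, a class II chain (-2.97), and Ciita, the transactivator of the class II genes (-2.74), behaved alike. Scavenger and phagocytic receptors were called lower in 10 of 18 and higher in none. Stab1, a clearance receptor, measured 979, 653, 1116 and 964 CPM in batch 2 and 114, 136, 78.8 and 122 CPM in batch 3 (log2 fold change -3.01 ± 0.21 (SE), edgeR adjusted p = 6.06e-06). Marco, a bacterial scavenger receptor, measured 20.4, 47.8, 5.31 and 194 CPM in batch 2 and 0.586, 0.138, 0 and 0 CPM in batch 3. Its batch 3 libraries held 5 counts in all, and batch 2 had a 36.6-fold range, so the size of its fall is poorly set (edgeR adjusted p = 0.00202). The call was lost with limma voom (adjusted p = 0.103) and in KO cultures alone (edgeR adjusted p = 0.0738).

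Lysosome genes were called both ways. Of 29 tested, 5 were called higher and 9 lower, 48.3% in all, not far from the 41.8% over all tested genes. Their median log2 fold change was 0.03, against 0.01 over all tested genes. The 5 higher calls came down to 2 when any of the KO cultures was left out. Gpnmb, a lysosomal glycoprotein of lipid-laden macrophages, measured 4937, 5216, 5266 and 7454 CPM in batch 2 and 10606, 10513, 9797 and 10480.5 CPM in batch 3 (log2 fold change 0.82 ± 0.15 (SE), edgeR adjusted p = 0.0014). The proteases Ctsc (-1.72) and Ctsh (-1.26), the mannosidase Man2b1 (-0.99) and progranulin, Grn (-0.95), were called lower. Psap, the precursor of the saposins, was lower by -0.60 on the log2 scale. Lgals3, which encodes galectin-3, rose by 0.78.

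The 2 arms of sterol balance moved in opposite directions. Among cholesterol synthesis and uptake genes, 18 of 22 tested members were called higher and none lower, with a median log2 fold change of 1.504. Insig1, which holds back SREBP processing, measured 70.8, 124, 68.0 and 136 CPM in batch 2 and 298, 288, 435 and 312 CPM in batch 3. In batch 2, KO3 and WT4 lay above KO2 and KO4, and all 4 batch 3 cultures were above WT4 (log2 fold change 1.64 ± 0.20 (SE), edgeR adjusted p = 2.16e-04). The synthesis enzymes Cyp51 (1.71), Hsd17b7 (1.93), Sqle (1.87), Sc5d (1.47) and Hmgcs1 (1.38) were called higher. In footprints, 12 of 21 members were called higher and none lower, and 7 without KO5 or without KO6 and WT6 together. Fatty acid synthesis genes were called higher in 5 of 13 and lower in none, and in 9 without WT4. Elovl6, a fatty acid elongase, was among them (1.28).

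LXR targets were called lower in 6 of 11 and higher in 1. Apoe (chromosome 7, 19696244 to 19701310), the apolipoprotein that macrophages secrete with cholesterol, measured 5255, 1387, 5639 and 3548 CPM in batch 2 and 46.2, 50.9, 61.5 and 52.0 CPM in batch 3. KO3 was the lowest of batch 2 and still 22.6-fold above the highest batch 3 culture (log2 fold change -6.24 ± 0.50 (SE), edgeR adjusted p = 7.34e-05). Abca1, the cholesterol exporter, measured 655, 376, 678 and 711 CPM in batch 2 and 39.3, 79.1, 63.9 and 78.2 CPM in batch 3 (log2 fold change -3.29 ± 0.26 (SE), edgeR adjusted p = 2.23e-05). Apoc2, a neighbour of Apoe on the chromosome, measured 110.3, 52.5, 94.3 and 148 CPM in batch 2 and 2.64, 2.90, 11.4 and 4.63 CPM in batch 3 (log2 fold change -4.59 ± 0.35 (SE), edgeR adjusted p = 2.94e-05). Pltp, the phospholipid transfer protein, was lower by -2.12 on the log2 scale. The exception was Lpcat3, and Abcg1 and Srebf1 were not called.

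To show what lies upstream of the genes that moved together, 4 short motifs were searched on both strands of RefSeq promoters of GRCm38.p6 (250 bases before to 50 after the start), for genes with 1 start in the table. CCAAT, the box bound by NF-Y beside many sterol elements, lay in 12 of 13 cholesterol gene promoters (92.3%), against 40.0% of the 6910 tested genes with a promoter and 38.2% of all 22862 promoters. It is a common motif and was also found in 25 of 36 cell cycle promoters (69.4%). The sterol regulatory element core TCACNCCAC lay in 1 of the 13 (7.69%) and in 1.03% of tested genes. That promoter was the one of Hmgcs1, whose window below holds this element in lower case. The Hmgcs1 and Sc5d windows are shown since both genes rose and carry the box (capitals; on the opposite strand it reads ATTGG).
Hmgcs1, chr13:119690101-119690340, plus strand: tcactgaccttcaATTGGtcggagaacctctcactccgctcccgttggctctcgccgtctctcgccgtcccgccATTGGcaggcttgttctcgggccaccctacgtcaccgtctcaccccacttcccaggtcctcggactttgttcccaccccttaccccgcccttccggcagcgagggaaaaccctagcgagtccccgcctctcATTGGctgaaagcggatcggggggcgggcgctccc
Sc5d, chr9:42264301-42264354, minus strand: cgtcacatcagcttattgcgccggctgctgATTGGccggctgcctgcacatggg

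Interferon-stimulated genes were lower almost throughout. Of 47 tested, 44 were called lower and none higher, with a median log2 fold change of -1.13, and leaving out any culture left 41 to 43. Irf7, the transcription factor that amplifies the interferon response, measured 439, 462, 469 and 348 CPM in batch 2 and 85.3, 104, 96.0 and 99.0 CPM in batch 3. The groups did not overlap, and batch 3 was even across the 4 cultures (log2 fold change -2.12 ± 0.13 (SE), edgeR adjusted p = 1.43e-06). Ifi44 measured 147, 129, 134 and 103 CPM in batch 2 and 20.2, 25.9, 17.3 and 14.2 CPM in batch 3 (log2 fold change -2.62 ± 0.13 (SE), edgeR adjusted p = 4.36e-07). Zbp1, a sensor of Z-form nucleic acid, measured 103, 143, 95.8 and 139 CPM in batch 2 and 18.6, 17.9, 23.5 and 21.3 CPM in batch 3 (log2 fold change -2.64 ± 0.15 (SE), edgeR adjusted p = 9.69e-07). Slfn1, a member of the schlafen family, was lower by -3.82 on the log2 scale. Isg15, a ubiquitin-like modifier, fell less, from 97.6, 119, 85.4 and 119 CPM in batch 2 to 43.0, 53.2, 49.5 and 43.6 CPM in batch 3 (log2 fold change -1.17 ± 0.14 (SE), edgeR adjusted p = 1.24e-04). The 3 members not called were Oas1a, Usp18 and Irgm1. Class I presentation, which interferon raises, was called lower in 12 of 14 and in 8 without KO5. B2m, the light chain of class I molecules, measured 4400.1, 4200.0, 4287 and 4662 CPM in batch 2 and 2222, 2332, 2703 and 2257 CPM in batch 3 (log2 fold change -0.91 ± 0.12 (SE), edgeR adjusted p = 2.25e-04). H2-K1 (-0.78), Tapbp (-0.96) and Tap1 (-0.84) fell by similar amounts.

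The core of the interferon-stimulated response element, GAAANNGAAA, was found in 17 of 28 promoters of the interferon list (60.7%). It lay in 3.44% of tested genes, in 3.58% of all promoters, in 6.72% of genes called lower and in 2.40% of genes called higher. Windows of 3 genes called lower are shown with every match in capitals, overlapping matches run together, and a match on the opposite strand appears as its reverse complement.
Isg15, chr4:156200845-156200926, minus strand: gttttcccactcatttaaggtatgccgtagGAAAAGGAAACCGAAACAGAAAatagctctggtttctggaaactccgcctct
Rsad2, chr12:26456533-26456602, minus strand: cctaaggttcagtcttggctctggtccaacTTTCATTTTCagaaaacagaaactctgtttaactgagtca
Cxcl10, chr5:92349063-92349132, minus strand: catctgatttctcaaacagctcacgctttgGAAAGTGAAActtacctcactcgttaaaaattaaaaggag

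Inflammatory cytokines and NF-kB targets were called lower in 20 of 27 and higher in 1, and in 15 without WT4. Il1b, which encodes interleukin 1 beta, measured 18.4, 23.7, 7.65 and 36.7 CPM in batch 2 and 0.44, 0.551, 0.946 and 0.463 CPM in batch 3. Its level was low in both batches and the batches were well separated (log2 fold change -5.37 ± 0.43 (SE), edgeR adjusted p = 1.48e-05). Nfkbiz, an inducible nuclear member of the pathway, measured 119.8, 75.5, 66.5 and 123 CPM in batch 2 and 8.36, 8.82, 9.15 and 10.2 CPM in batch 3 (log2 fold change -3.47 ± 0.20 (SE), edgeR adjusted p = 1.57e-06), and the co-stimulatory receptor Cd40 was lower by -3.47 on the log2 scale. Saa3, an acute-phase protein of macrophages, measured 105, 710.2, 20.8 and 1946 CPM in batch 2 and 1.76, 1.38, 3.31 and 1.85 CPM in batch 3. Batch 2 spanned a 93.5-fold range, from KO4 to WT4. The call (edgeR adjusted p = 0.00494) was lost without WT4 (0.0716), in KO cultures alone (0.134) and with limma voom (0.0922). Fpr1, a receptor for bacterial formyl peptides, and Slc13a3, a dicarboxylate transporter, had the same order of cultures within batch 2. Fpr1 measured 17.5, 45.4, 4.04 and 151 CPM in batch 2 and 0.293, 0.414, 0.631 and 0.925 CPM in batch 3. The Fpr1 call was lost in KO cultures alone (edgeR adjusted p = 0.0873) and was close to the threshold with limma voom (0.0497). Slc13a3 measured 64.0, 87.8, 18.5 and 706 CPM in batch 2 and 3.08, 1.79, 2.37 and 1.23 CPM in batch 3, with WT4 apart from the other 3. Immediate early genes, which respond within minutes to handling or stimulation, were called lower in 8 of 20 and higher in 1. The lower calls came to 3 without KO6 and 5 without KO4 or KO5. In all 45% of this list was called, not far from the 41.8% over all tested genes. Over all tested genes 21.2% were called lower.

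**Figure D2:**
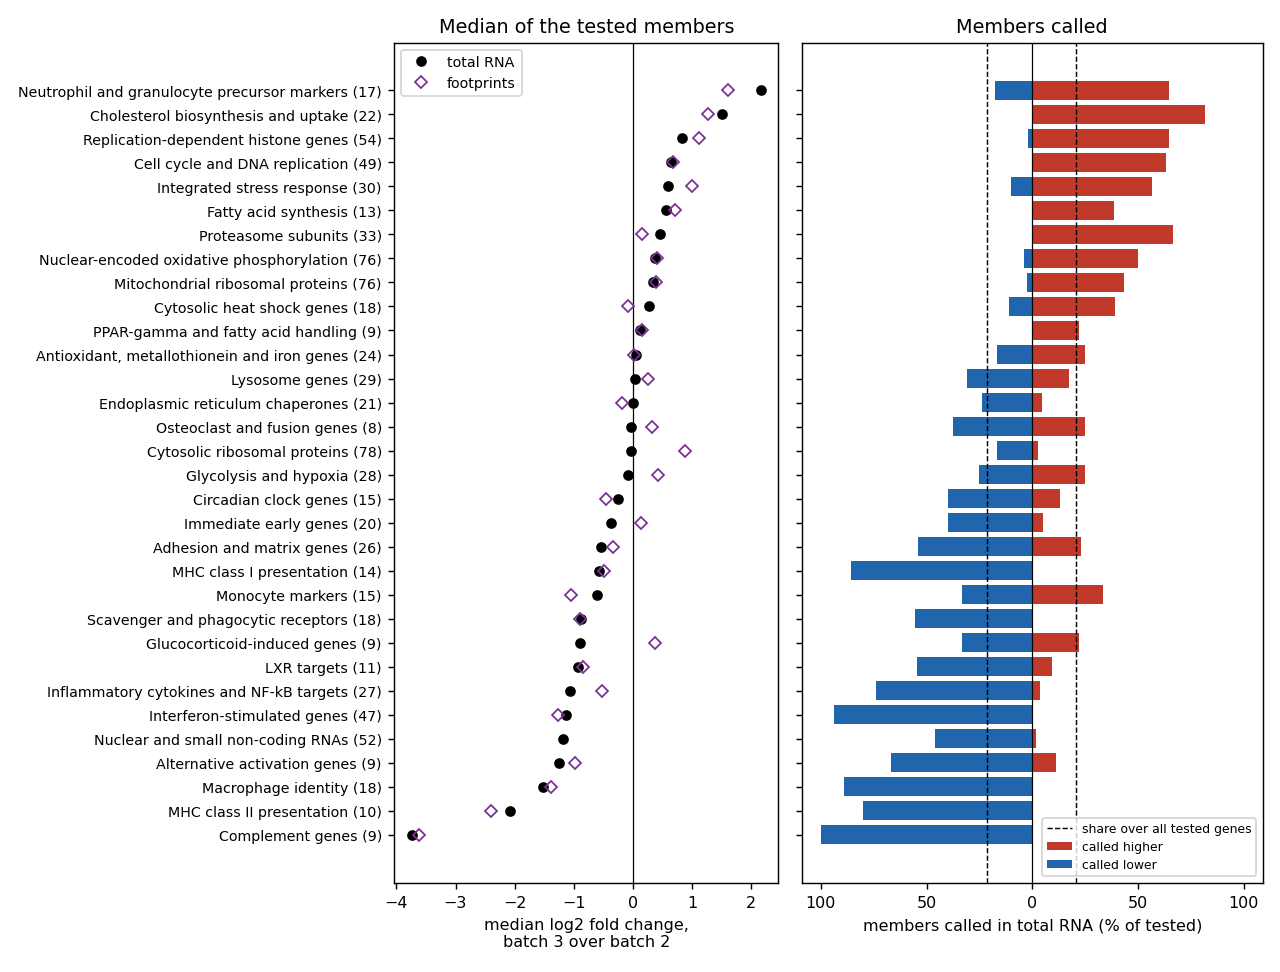
The 32 lists with at least 8 tested members, with the number tested in brackets. Left, the median log2 fold change of batch 3 over batch 2 in total RNA (circles) and in footprints (diamonds); right, the percent of tested members called higher (red) or lower (blue), with dashed lines at the shares over all tested genes. Complement genes lie lowest at -3.74, and neutrophil and granulocyte precursor markers highest at 2.17.

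Genes of progenitors and granulocyte precursors rose. Kit (chromosome 5, 75574987 to 75656722) measured 2.60, 3.26, 3.40 and 1.54 CPM in batch 2 and 45.0, 70.2, 41.3 and 52.9 CPM in batch 3, and every batch 3 culture was at least 12.2-fold above the highest of batch 2 (log2 fold change 4.39 ± 0.23 (SE), edgeR adjusted p = 6.14e-07). Granule proteases followed at lower levels. Ctsg, cathepsin G, measured 0, 0, 0.637 and 1.196 CPM in batch 2 and 12.0, 8.13, 12.0 and 9.56 CPM in batch 3 (log2 fold change 4.45 ± 0.54 (SE), edgeR adjusted p = 1.98e-04). Prtn3, proteinase 3, measured 0.145, 0.362, 1.06 and 2.39 CPM in batch 2 and 11.9, 9.38, 8.99 and 12.95 CPM in batch 3 (log2 fold change 3.40 ± 0.45 (SE), edgeR adjusted p = 3.34e-04). In batch 2 the few counts of both came chiefly from KO4 and WT4, and without WT4 the log2 fold changes were 5.68 and 4.43. Elane, neutrophil elastase, and Mpo, myeloperoxidase, were called higher too. Elane measured 0, 0, 0 and 1.71 CPM in batch 2 and 8.06, 7.72, 6.15 and 9.56 CPM in batch 3. Mpo measured 0.723, 1.09, 1.06 and 6.15 CPM in batch 2 and 16.1, 21.2, 12.0 and 20.8 CPM in batch 3, with WT4 apart in batch 2.

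Of 17 tested markers of neutrophils and their precursors, 11 were called higher and 3 lower, at a median of 2.17. The members that rose include the secondary granule proteins lactoferrin, Ltf (2.07), and Ngp (2.17), and S100a9, a calcium-binding alarmin. S100a9 measured 16.8, 27.5, 42.9 and 67.8 CPM in batch 2 and 215, 162, 227 and 228 CPM in batch 3 (log2 fold change 2.35 ± 0.30 (SE), edgeR adjusted p = 5.38e-04). The 3 that fell include Csf3r, the G-CSF receptor, and Mmp9, a secreted protease. Csf3r measured 85.9, 74.8, 83.1 and 122 CPM in batch 2 and 14.7, 18.1, 16.9 and 26.8 CPM in batch 3 (log2 fold change -2.37 ± 0.16 (SE), edgeR adjusted p = 2.74e-06). Mmp9 measured 6.22, 5.07, 4.89 and 24.4 CPM in batch 2 and 1.76, 1.24, 1.89 and 3.55 CPM in batch 3 (log2 fold change -2.51 ± 0.31 (SE), edgeR adjusted p = 1.67e-04), and its log2 fold change without WT4 was -1.85. The summed CPM of the list overlapped between the batches, 172.7 to 643.7 in batch 2 and 494.1 to 655.6 in batch 3, with WT4 as the highest of batch 2. The chemokine receptor Cxcr2, the protease Mmp8 and the iron-binding Lcn2 were not called.

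Monocyte markers were split, with 5 of 15 called higher and 5 lower. Ly6c2, the surface antigen of inflammatory monocytes, measured 1.16, 3.80, 4.04 and 6.49 CPM in batch 2 and 26.8, 23.7, 31.4 and 22.2 CPM in batch 3 (log2 fold change 2.71 ± 0.32 (SE), edgeR adjusted p = 1.78e-04), while its close relative Ly6c1 went the other way (log2 fold change -1.93 ± 0.15 (SE), edgeR adjusted p = 6.17e-06). The 2 genes are similar in sequence and can share reads. Chi3l3, a chitinase-like secreted protein, measured 9.11, 11.6, 20.8 and 21.5 CPM in batch 2 and 77.8, 81.9, 87.7 and 93.1 CPM in batch 3 (log2 fold change 2.38 ± 0.22 (SE), edgeR adjusted p = 3.61e-05). S100a4 also rose (1.26). The chemokine receptor Ccr2 fell, from 411, 332, 510.2 and 165 CPM in batch 2 to 63.9, 72.4, 102 and 99.5 CPM in batch 3. Of the 2 lymphocyte markers that passed the filter on low counts, the interleukin 7 receptor Il7r rose, from 162, 117, 157 and 94.2 CPM in batch 2 to 323, 318, 347 and 349 CPM in batch 3, and Cd79b, a chain of the B cell receptor complex, fell (-1.60). The other 9 failed that filter, which fixes that their counts are low: they (Cd3e among them) had at most 3 counts in any of the 8 libraries. The highest count of an untested stromal or endothelial marker was 10 and of an erythroid or megakaryocyte marker 12. Among mast cell and basophil markers, Tpsb2 and Cma1 were at 0 in all 8 libraries and Cpa3 reached 10 counts, and the summed CPM of the tested members, 3.76 to 5.74 in batch 2 and 45.7 to 74.6 in batch 3, was mostly Kit. Dendritic cell markers were called lower in 5 of 6, with summed CPM of 32.8 to 106.8 in batch 2 and 20.7 to 24.96 in batch 3, in 2 when KO5 or KO6 was left out, and in 3 without KO2, KO3, KO4 or WT5. The part of any such cells in the changes above was not tested.

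Genes of growth and division rose by smaller steps. Cell cycle and replication genes were called higher in 31 of 49 and lower in none, at a median log2 fold change of 0.65. Ccna2, cyclin A2, measured 60.4, 91.6, 64.4 and 50.9 CPM in batch 2 and 168, 142, 141 and 149.6 CPM in batch 3 (log2 fold change 1.24 ± 0.16 (SE), edgeR adjusted p = 1.79e-04). Bub1, a spindle checkpoint kinase, measured 23.4, 33.8, 21.5 and 23.8 CPM in batch 2 and 67.3, 60.8, 56.3 and 56.0 CPM in batch 3 (log2 fold change 1.27 ± 0.15 (SE), edgeR adjusted p = 1.10e-04). Rrm2, the regulated subunit of ribonucleotide reductase, rose by 1.08. Mki67, the common proliferation marker, measured 388, 547, 388 and 221 CPM in batch 2 and 352, 377, 244 and 381 CPM in batch 3, with no call (log2 fold change -0.01 ± 0.21 (SE), edgeR adjusted p = 0.981). Replication-dependent histone genes were called higher in 35 of 54 and lower in 1, at a median of 0.82, and higher in 21 without WT4 and 22 without KO5. Hist1h1d, a linker histone, rose by 1.07, and Hist1h4k, one of the histone H4 genes, by 1.76. The near-identical copies of this family can share reads. The summed CPM of the cell cycle list was 2591 to 4455 in batch 2, lowest in WT4, and 4927 to 6214 in batch 3.

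Cdkn1c (chromosome 7, 143458339 to 143461059), an imprinted gene for the cell cycle inhibitor p57, was higher in every batch 3 culture. It measured 17.6, 17.6, 24.4 and 28.7 CPM in batch 2 and 216, 238, 255 and 221 CPM in batch 3. The groups were compact and 7.52-fold apart at their nearest values (log2 fold change 3.35 ± 0.15 (SE), edgeR adjusted p = 2.38e-07), and footprints rose alike (log2 fold change 3.51, edgeR adjusted p = 2.45e-18).

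Genes of serine and asparagine synthesis rose with other targets of the integrated stress response, the program that ATF4 drives when translation initiation is restrained or amino acids are short. The list had 17 of 30 members called higher and 3 lower, at a median of 0.59, and 1 lower without WT4. Asns, asparagine synthetase, measured 15.6, 17.6, 9.56 and 20.0 CPM in batch 2 and 111, 100.2, 94.9 and 84.7 CPM in batch 3 (log2 fold change 2.63 ± 0.20 (SE), edgeR adjusted p = 6.86e-06). Phgdh, the first enzyme of serine synthesis, measured 3.76, 17.6, 4.67 and 16.2 CPM in batch 2 and 97.6, 94.4, 107 and 81.4 CPM in batch 3, with KO3 and WT4 above the others in batch 2 (log2 fold change 3.13 ± 0.44 (SE), edgeR adjusted p = 0.00128). Psat1, the next enzyme, measured 20.1, 22.4, 24.0 and 20.8 CPM in batch 2 and 95.9, 69.6, 67.3 and 70.3 CPM in batch 3 (log2 fold change 1.84 ± 0.14 (SE), edgeR adjusted p = 5.37e-06). Atf4 itself rose from 124, 130, 117 and 134 CPM in batch 2 to 306, 231, 273 and 262 CPM in batch 3 (log2 fold change 1.07 ± 0.12 (SE), edgeR adjusted p = 6.49e-05). Mthfd2 (1.42), Shmt2 (0.96) and the glycyl-tRNA synthetase Gars (0.93) were called higher. Ddit3, which encodes CHOP, a factor of prolonged stress, was not called (log2 fold change -0.37 ± 0.16 (SE), edgeR adjusted p = 0.0827). The 3 that fell were Sesn2, Nupr1 and Vldlr, the last not called without WT4 (adjusted p = 0.168). Chaperones of the endoplasmic reticulum were called higher in 1 of 21 and lower in 5. In all 28.6% of them were called, less than the 41.8% over all tested genes. The lower calls came to 1 without WT4, 2 without KO3 and 3 without KO5, KO6 or WT6. The higher calls came to 2 without KO3 or WT4 and 4 without WT6.

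The core of the amino acid response element, TGATGNAA, lay in 9 of 21 promoters of this list (42.9%), in 2.27% of tested genes and in 4.18% of all promoters. Genes called higher (2.80%) and lower (2.75%) held it about equally often. Asns and Chac1, a glutathione-cleaving enzyme that also rose (log2 fold change 3.28, or 4.46 without WT4), are shown with the match in capitals, for Chac1 as its reverse complement.
Asns, chr6:7693210-7693262, minus strand: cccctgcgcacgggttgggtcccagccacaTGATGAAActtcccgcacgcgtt
Chac1, chr2:119351019-119351086, plus strand: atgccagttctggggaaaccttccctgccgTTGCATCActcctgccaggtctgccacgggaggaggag

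Calls among mitochondrial and proteasome genes were mostly upward and small. Nuclear-encoded subunits of oxidative phosphorylation were called higher in 38 of 76 and lower in 3, at a median log2 fold change of 0.37. Mitochondrial ribosomal proteins were called higher in 33 of 76 and lower in 2, at a median of 0.35. Proteasome subunits were called higher in 22 of 33 and lower in none, at a median of 0.46. Ndufb6, a subunit of complex I (1.17), Mrps28 (1.05) and Psmb6 (0.86) were among the clearest. Without KO5 the 3 counts of higher calls were 16, 16 and 14, and without KO2 the first was 25. Glycolysis and hypoxia genes were called higher in 7 of 28 and lower in 7, among them Vegfa, the vascular growth factor (-2.08), and Bhlhe40, a transcription factor induced in low oxygen (2.04). Heat shock genes (7 higher, 2 lower of 18), genes of antioxidant and iron handling (6 and 4 of 24) and clock genes (2 and 6 of 15) were called both ways. In the antioxidant and iron list 41.7% of tested members were called, against 41.8% over all tested genes. Its counts, and those of the glycolysis and hypoxia list, were not far from the background of 20.5% called higher and 21.2% lower. These 2 lists were thus not set apart from the other genes. With 1 culture left out, higher calls ran from 4 (without KO5) to 10 (without WT4) in the glycolysis and hypoxia list, from 2 (without KO5) to 10 (without WT4) in the iron list, and from 1 (without KO5) to 3 in the clock list. Lower calls in the iron list came to 2 without WT4. Fth1, the ferritin heavy chain, measured 9669, 10986, 9089 and 17518 CPM in batch 2 and 16005, 20097, 15219.7 and 18668 CPM in batch 3. Its groups overlapped, and the call (log2 fold change 0.53 ± 0.19 (SE), edgeR adjusted p = 0.0457) was lost in leaving out any of 6 of the 8 cultures. The 4 tested genes known to differ between C57BL/6 substrains had no call.

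**Figure D3:**
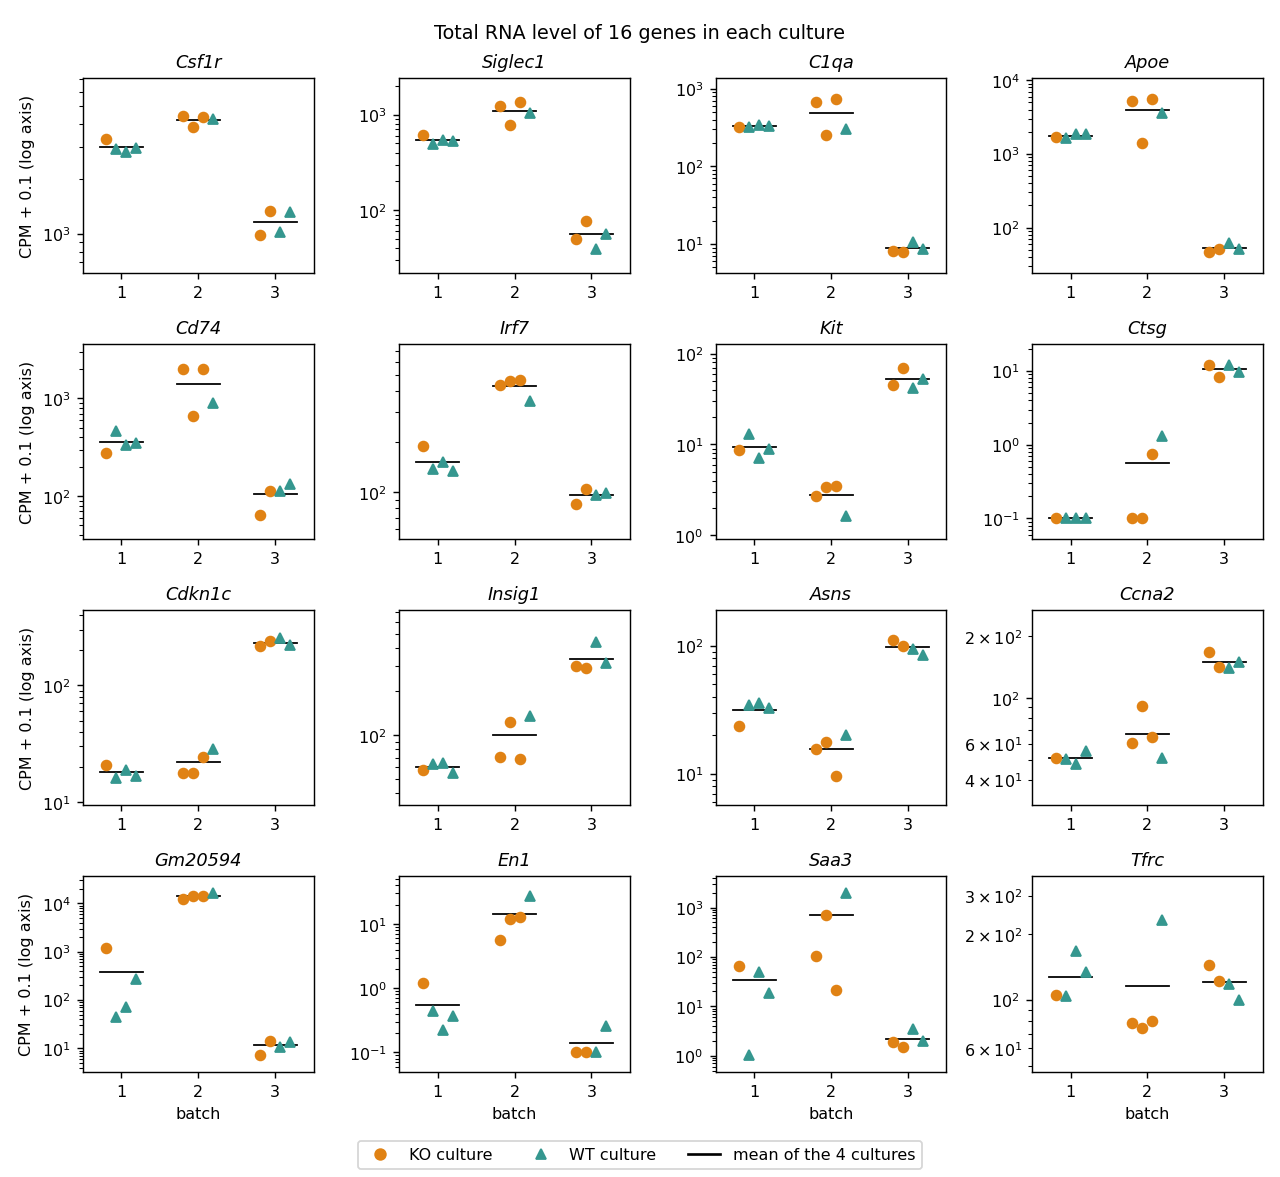
Total RNA level of 16 genes in each culture (CPM + 0.1, log axis) by batch, with KO cultures as circles, WT cultures as triangles and the mean of 4 cultures as a line. Batch 1 was scaled with all 12 libraries, and batches 2 and 3 with their 8. Batch 3 stands apart from batches 1 and 2 for Csf1r, C1qa, Apoe, Kit and Cdkn1c, and WT4 lies apart from the other batch 2 cultures for Tfrc.

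Batch 1, which did not enter the fit, gives a further set of values. Its libraries held 2 to 11 counts of Xist and 266 to 1694 of each Y-linked gene, as in batch 2. Its mean level was nearer to batch 2 than to batch 3 in 1558 of the 2241 genes called higher (69.5%) and in 1447 of the 2314 called lower (62.5%). These genes were picked for a difference between batches 2 and 3. The share over all tested genes was not taken, so these shares have no background beside them. In the order KO1, WT1, WT2, WT3, batch 1 measured 3293, 2916, 2798 and 2952 CPM of Csf1r, 1716, 1669, 1868 and 1851 CPM of Apoe and 8.65, 12.9, 6.94 and 8.76 CPM of Kit. For these 3 genes batch 1 lay on the batch 2 side. All 22 cholesterol genes had batch 1 nearer to batch 2. Interferon-stimulated genes were less one-sided, with 21 of 47 nearer to batch 2 and 39 between the 2 batches. Irf7 measured 188, 137, 151 and 133 CPM in batch 1.

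Several of the largest falls were in transcripts with few footprints for their RNA counts. Gm20594, a short predicted protein-coding gene (chromosome 6, 79818031 to 79818364), measured 12259.6, 14549, 14050.5 and 16343 CPM in batch 2 and 7.18, 14.2, 10.7 and 13.4 CPM in batch 3. This was the largest fold change among the genes named (log2 fold change -10.34 ± 0.26 (SE), edgeR adjusted p = 2.75e-09), and batch 1 lay between and was uneven, at 1167, 44.5, 71.7 and 271 CPM. Its footprints came to 2058 counts over the 4 libraries of batch 2, beside 326984 RNA counts, and 8 over those of batch 3, and were not called (edgeR adjusted p = 0.11). En1, a homeobox gene of the hindbrain, measured 5.64, 11.8, 12.7 and 27.7 CPM in batch 2 and 0, 0, 0 and 0.154 CPM in batch 3, with 326 RNA counts and 1 footprint count in batch 2. Lrrn4, a leucine-rich repeat protein of neurons, measured 7.23, 29.3, 25.3 and 30.6 CPM in batch 2 and 0.147, 0, 0 and 0.308 CPM in batch 3, with 510 RNA counts and 0 footprint counts in batch 2. In batch 3, En1 and Lrrn4 were at 1 and 3 RNA counts in all, so no fold is given. The share of reads outside features was also higher in batch 2 than in batch 3. Within batch 2 that share was highest in KO2 (19.2%) and lowest in WT4 (14.1%). Gm20594, En1 and Lrrn4 ran the other way there, lowest in KO2 and highest in WT4. Malat1, described below, was highest in KO2 and lowest in WT4. The part of that share in these values was not tested.

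Other large falls had more footprints for their RNA, with 1192 counts beside 1273 of RNA in batch 2 for Cp and 155 beside 550 for Cmklr1. Cmklr1, the chemerin receptor, measured 18.2, 13.6, 15.7 and 47.0 CPM in batch 2 and 0, 0.138, 0 and 0.154 CPM in batch 3, with 2 RNA counts in batch 3. Cp, ceruloplasmin, measured 44.7, 36.9, 31.9 and 104 CPM in batch 2 and 0.293, 0.138, 0.158 and 0.771 CPM in batch 3 (log2 fold change -7.60 ± 0.28 (SE), edgeR adjusted p = 5.47e-08). Mmp14, a membrane protease, measured 9.97, 27.1, 4.25 and 69.5 CPM in batch 2 and 0.147, 0.276, 0 and 0.463 CPM in batch 3, with 595 footprint counts in batch 2 and 0 in batch 3. Tmem176a, an ion channel of antigen-presenting cells, measured 209, 93.4, 167 and 208 CPM in batch 2 and 1.76, 3.03, 4.42 and 4.78 CPM in batch 3 (log2 fold change -5.77 ± 0.31 (SE), edgeR adjusted p = 2.02e-06). WT4 was the highest of batch 2 for Cmklr1, Cp and Mmp14, and the batches did not overlap in these 4 genes.

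Large gains were found in genes of many kinds. Gpr97, an adhesion receptor of granulocytes, measured 0.145, 0.362, 0 and 0.513 CPM in batch 2 and 14.7, 17.4, 10.6 and 13.9 CPM in batch 3 (log2 fold change 5.71 ± 0.39 (SE), edgeR adjusted p = 3.25e-06, or 6.36 without WT4). Slc6a17, a neutral amino acid transporter, measured 0.289, 1.27, 0.425 and 0 CPM in batch 2 and 17.7, 18.2, 4.89 and 13.9 CPM in batch 3, lowest of batch 3 in WT5. Sema5a, a semaphorin, measured 0.289, 1.09, 1.27 and 0 CPM in batch 2 and 12.6, 11.4, 5.99 and 9.41 CPM in batch 3. These 3 genes had 6, 11 and 14 counts in all over the 4 libraries of batch 2. Serpinb1a, an inhibitor of granule proteases, measured 1.45, 3.26, 1.06 and 0.854 CPM in batch 2 and 36.1, 20.8, 19.2 and 21.3 CPM in batch 3 (log2 fold change 4.01 ± 0.32 (SE), edgeR adjusted p = 1.14e-05). Serpinb1c, a relative that can share its reads, rose by 3.33. Ndrg4 measured 1.59, 8.14, 1.91 and 5.81 CPM in batch 2 and 64.6, 56.4, 41.5 and 50.1 CPM in batch 3 (log2 fold change 3.63 ± 0.42 (SE), edgeR adjusted p = 3.38e-04). Dio2, the deiodinase that activates thyroid hormone, measured 10.7, 9.59, 9.13 and 24.3 CPM in batch 2 and 137, 174, 184 and 131 CPM in batch 3 (log2 fold change 3.49 ± 0.26 (SE), edgeR adjusted p = 1.21e-05). Eef1a2, a translation elongation factor of muscle and neurons, rose by 3.93, Akap2, an anchor of protein kinase A, by 3.25, and Cd207, langerin, by 3.06. Itgb3, the beta 3 integrin, and Il7r, the interleukin 7 receptor, were the clearest gains of the osteoclast and lymphocyte lists (2.21 and 1.40). Osbpl8, an oxysterol-binding protein, measured 1439.6, 1449.8, 1431 and 1211 CPM in batch 2 and 2272, 2094, 2088 and 2164 CPM in batch 3 (log2 fold change 0.68 ± 0.11 (SE), edgeR adjusted p = 0.001).

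Footprints mark the mRNA that ribosomes were reading in the same cultures. They were tested in 7354 genes, of which 721 were called higher (9.80%) and 901 lower (12.3%). Depth was far lower in batch 3, with 29561 to 223504 counts in genes against 955199 to 3714912 in batch 2, and both molecules come from the same cultures, so footprints are no independent check. Interferon-stimulated genes were called lower in 35 of 45 and higher in none, and complement genes lower in 8 of 9. The macrophage identity list had 10 of 17 lower and 1 higher. The difference between the footprint change and the RNA change was then tested over the 16 libraries of both kinds. Of 7351 genes, 198 (2.69%) had footprints that rose relative to RNA and 180 (2.45%) footprints that fell. Without KO5 the footprint calls came to 434 higher and 615 lower and the relative changes to 25 and 22. Footprint calls lower were 538 of 4506 genes tested without WT4 and 578 of 4511 without KO2, where fewer genes passed the filter. The other cultures left out gave 93 to 210 relative rises and 75 to 231 relative falls, of 4487 to 8181 genes tested. With the culture as a replicate block, which pairs each footprint library with its RNA library, 602 rose and 503 fell.

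Cytosolic ribosomal proteins stood out in footprints. In total RNA, 2 of 78 were called higher and 13 lower, a smaller share than over all genes, and the median log2 fold change was -0.03. In footprints, 61 of 76 were called higher and none lower, at a median of 0.87 against -0.04 over all genes. Relative to RNA, footprints rose in 42 of 76 and fell in none, or in 59 and 1 with the culture as a block. Their mRNAs carry a 5′ terminal oligopyrimidine tract, through which mTOR sets their translation. Rpl28 measured 310.1, 338, 311 and 373 CPM in batch 2 and 159.8, 184, 216 and 212 CPM in batch 3. Its RNA fell (log2 fold change -0.86 ± 0.10 (SE), edgeR adjusted p = 1.15e-04) while its footprints rose (log2 fold change 0.63, edgeR adjusted p = 0.0302). Rplp0 had no call in RNA (log2 fold change 0.04 ± 0.14 (SE), edgeR adjusted p = 0.846) and rose by 1.18 in footprints. Many ribosomal protein genes have processed pseudogenes that can take their reads. The 61 calls came to 35 without KO5, and the 42 to 9, with medians of 0.61 and 0.60. Irf7 differed between RNA and footprints, with RNA lower by -2.12 and footprints at 0.34 (edgeR adjusted p = 0.407), from 648 footprint counts in batch 2 and 42 in batch 3. The difference of the 2 changes was called for Irf7 (2.48 ± 0.30 on the log2 scale, edgeR adjusted p = 8.14e-05).

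**Figure D4:**
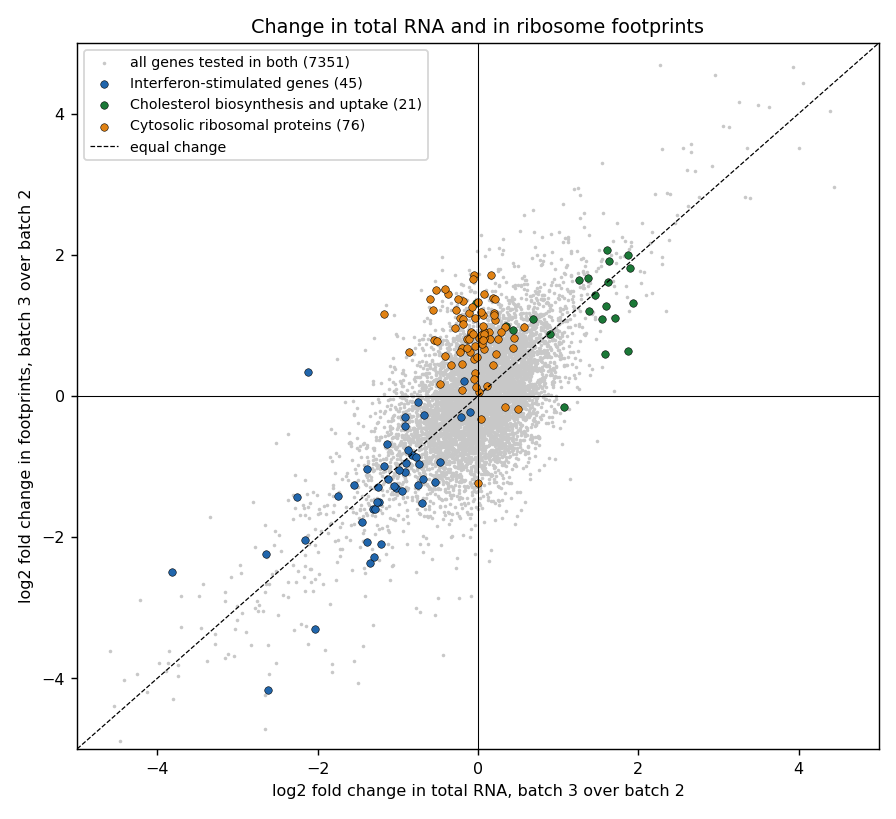
Log2 fold change of batch 3 over batch 2 in total RNA (x axis) and in footprints (y axis) for 7351 genes tested in both, with 3 lists in colour and the line of equal change dashed; 23 genes lie outside the limits of 5. Interferon-stimulated genes lie toward the lower left, cholesterol genes toward the upper right, and ribosomal proteins above 0 in footprints and around 0 in RNA.

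Many small nucleolar RNAs fell. Of 52 tested nuclear and small non-coding RNAs, 24 were called lower, 1 higher and 27 not at all, at a median of -1.18. The summed CPM of the list did not fall, at 13165 to 21600 in batch 2 and 14323 to 24302 in batch 3. Its most abundant member, Rpph1, the RNA of ribonuclease P, measured 6183, 7698, 10917 and 8634 CPM in batch 2 and 11341, 10028, 15646 and 12445 CPM in batch 3, with no call (log2 fold change 0.49 ± 0.19 (SE), edgeR adjusted p = 0.064), though DESeq2 called it higher (adjusted p = 0.0269). Snord12 (-2.26), Snord49a (-2.83) and Snord65 (-2.89) were among the small nucleolar RNAs called, all of them lying inside introns of other genes. Gas5, a host transcript of such RNAs, measured 66.2, 52.5, 59.7 and 64.8 CPM in batch 2 and 30.9, 32.7, 50.1 and 33.9 CPM in batch 3 (log2 fold change -0.80 ± 0.15 (SE), edgeR adjusted p = 0.00185). Malat1, a nuclear RNA, measured 9048, 1667, 4428 and 1430.4 CPM in batch 2 and 454, 586, 729 and 615 CPM in batch 3, with a 6.33-fold range in batch 2 (log2 fold change -2.58 ± 0.74 (SE), edgeR adjusted p = 0.0305). Its call was lost without KO5, KO6, WT5 or WT6, at adjusted p-values of 0.0517 to 0.108. By gene class, 21 of 45 tested small nucleolar RNAs were called lower and none higher, and 54 of 197 long non-coding RNAs lower against 11 higher. The annotated span of genes called lower had a median of 26.2 kb, against 21.0 kb in genes called higher and 22.4 kb in genes not called. Batch 2 also had the larger share of reads outside features. Within batch 2 that share was 19.2%, 14.6%, 15.7% and 14.1%. Malat1 had this order of cultures, while Rpph1 was lowest in KO2 and Gas5 lowest in KO3. Between the batches that share moved with the results above, and its part in them was not tested. Calls were spread over the chromosomes, from 35.7% of tested genes on chromosome 17 to 45.6% on chromosome 1.

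The batch difference was rarely shown to depend on genotype. The interaction of genotype and batch was called in 21 of 11213 genes (0.187%), 9 with a KO change above the WT change on the log2 scale and 12 with one below it, while 1075 had an unadjusted p below 0.05. The 5 genes with the smallest p were Pla2g7, Il4ra, Cd83, Acp5 and Tfrc. Pla2g7, a secreted phospholipase that hydrolyses platelet-activating factor, measured 188, 169, 133 and 1007 CPM in batch 2 and 48.1, 52.9, 48.4 and 44.6 CPM in batch 3. Il4ra, the interleukin 4 receptor, measured 130.2, 122, 139.6 and 423 CPM in batch 2 and 52.5, 56.0, 49.99 and 48.4 CPM in batch 3. Acp5, the tartrate-resistant phosphatase of osteoclasts, measured 7.81, 9.41, 7.43 and 78.1 CPM in batch 2 and 3.81, 3.58, 4.57 and 2.78 CPM in batch 3. In each, WT4 was high and the 3 KO cultures of batch 2 were alike. Tfrc, the transferrin receptor, measured 78.3, 74.4, 80.3 and 232 CPM in batch 2 and 145, 122, 118 and 99.9 CPM in batch 3, and Cd83, an activation marker, measured 77.5, 81.4, 83.1 and 23.6 CPM in batch 2 and 37.8, 34.3, 41.9 and 45.9 CPM in batch 3. WT4 again stood alone, high for Tfrc and low for Cd83. Without WT4, Tfrc was called higher (log2 fold change 0.78) and Cd83 lower (-1.16), where the fit to all 8 libraries called neither. The interaction rests on this 1 culture and could not be fitted without it, and no gene was called without KO5 or without KO6. Without KO3 the counts were 125 above and 96 below, without KO2 they were 5 and 3, without KO4 6 and 6, and without WT5 14 and 15.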

How the data were processed

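Total RNA and ribosome footprints of bone-marrow-derived macrophages were sequenced from the same cultures. The deposited values are whole-number counts of reads per gene symbol, not normalized, as the authors deposited them. Footprint counts are marked as limited to coding sequence, and the total RNA counts as strict, a term left undefined. The submitters' processing notes name build mm10 and, with no role or order, the tools DESeq2, DESeq, HTSeq, TopHat2 2.1.0, Cufflinks 2.2.1, Trim Galore and Bowtie 1.1.2. Strandedness and annotation are not given in the sources used here. HTSeq summary lines were kept out of totals and tests.

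Of 23337 symbols, 20756 matched RefSeq GRCm38.p6 by symbol and 2331 by synonym, 29 had several matches and 221 none; 1046 on X or Y were left out, leaving 22291. The test was edgeR's quasi-likelihood F-test in its robust form (version 4.0.16, R 4.3.3), with TMM scaling, genotype and batch as terms, filterByExpr at its default (minimum count 10) and a Benjamini-Hochberg threshold of 0.05. Called means past that threshold. The 10906 genes passing the filter include genes that passed through the batch in which they are high. Footprints were fitted alike. For the footprint to RNA difference, same-numbered libraries of both kinds were paired by culture, as the labels number them, in an alternative. Batch 1 levels were scaled with all 12 libraries, while batch 2 and batch 3 levels kept the scaling over their 8 libraries. They were compared as log2 of CPM plus 0.5, without a common scaling. The authors' result tables and batch 1 footprints were not used here. On simulated counts for total RNA, 24.0% of genes changed by 0.5, 83.0% by 1 and 100% by 2 (log2) were called, with 0.0284% false calls. The simulation changed 50, 100 and 50 of 10906 genes by these sizes, evenly up and down, with no genotype effect. The changed genes were drawn from those above a floor of expected counts, so the rates do not cover genes of lower counts. Far more genes were called in the data, so its share of false calls need not hold there.

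The comparison, its members and the gene lists were chosen with earlier results of these data known, and within it libraries were taken by label. Genes named are the 15 largest changes each way among called, non-overlapping protein-coding genes at 5 CPM or more, the 5 called each way with the most counts, up to 6 per list by p with its most abundant member, Apobec1, and the 5 smallest interaction p-values. Some genes this rule names are not reported here. Isg15, Rsad2, Cxcl10, Usp18, Oas1a, Irgm1, Mpo, Elane, Ccr2, Cx3cr1, Cxcr2, Mmp8, Lcn2, Malat1, Mki67, Ddit3, Chac1, Sesn2, Nupr1, Vldlr, Lpcat3, Abcg1, Srebf1, Sqle and Hmgcs1 were chosen after their values were seen, as were the footprint to RNA test and the motifs. Alternatives were DESeq2 1.42.0, limma 3.58.1 voom, other scalings, filters, samples and terms, and leaving out each culture.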

Additional observations from a re-analysis of the deposited data

Results flagged for a closer look

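Sets of 4 values were flagged at a limit that about 1 in 20 sets of independent normal values pass. The values here are not of that kind and share cultures, so that rate is no background for them. In all 268 sets were checked, for the genes named in the report and 3 measures of the libraries, per batch. Of these, 29 had 1 culture far from the other 3. WT4 was that culture in 16 of the 29, but these are not to be set against that rate: Pla2g7, Il4ra, Cd83, Acp5 and Tfrc were named for their interaction, in which WT4 is the sole WT culture of batch 2, and Mpo, Elane and Vldlr were chosen after their values were seen. It was high for Cmklr1 (47.0 CPM, the others 13.6 to 18.2), Slc13a3 (706 CPM, 18.5 to 87.8), Dio2 (24.3 CPM, 9.13 to 10.7), Gpnmb (7454 CPM, 4937 to 5266), Mertk (60.3 CPM, 36.6 to 39.8), Mmp9 (24.4 CPM, 4.89 to 6.22), Mpo (6.15 CPM, 0.723 to 1.09), Elane (1.71 CPM, the others at 0) and Vldlr (8.20 CPM, 4.34 to 4.89). It was also high for Pla2g7 (1007 CPM, 133 to 188), Il4ra (423 CPM, 121.6 to 139.6), Acp5 (78.1 CPM, 7.43 to 9.41) and Tfrc (232 CPM, 74.4 to 80.3). It was low for Serpinb1c (0.513 CPM, 3.47 to 4.04), Osbpl8 (1210.6 CPM, 1431 to 1449.8) and Cd83 (23.6 CPM, 77.5 to 83.1).

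WT5 stood apart in batch 3 for Gpnmb (9797 CPM, the others 10480.5 to 10606), Lyz2 (22530.5 CPM, 12221 to 13801), Cd14 (309 CPM, 240.8 to 246.5), Insig1 (435 CPM, 288 to 312), Sc5d (119.2 CPM, 92.8 to 94.98), Gas5 (50.1 CPM, 30.9 to 33.9), Ctsh (144.4 CPM, 110.1 to 112.1) and Rplp0 (2141 CPM, 1513 to 1619). KO5 stood apart for Serpinb1a (36.1 CPM, 19.2 to 21.3) and Psat1 (95.9 CPM, 67.3 to 70.3). Single values apart were those of Abca1 in KO3 (376 CPM, 654.8 to 711), Snord49a in KO4 (5.95 CPM, 2.73 to 3.18) and En1 in WT6 (0.154 CPM from 1 count, the others at 0).

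The batch difference was called different between genotypes (KO change minus WT change, log2 scale, edgeR interaction) for Pla2g7 (2.74), Il4ra (1.84), Cd83 (-2.06), Acp5 (3.26), Tfrc (1.87), Cx3cr1 (-1.82) and Ccr2 (-1.90), with adjusted p-values of 0.00415 to 0.0327. The WT side of batch 2 is WT4 alone.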

How the results depend on the processing

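The interaction with a culture left out and every footprint to RNA value were chosen after seeing the data. No paired analysis was possible because each replicate number lies in a single batch, so that a replicate block would take up the batch difference, for total RNA or footprints alone. The footprint to RNA difference can be paired by culture, and with that replicate block its calls came to 602 higher and 503 lower. The total RNA counts of 2241 higher and 2314 lower kept within 1.5 times under DESeq2, limma voom, RLE and upper-quartile scaling, other filters, no genotype term, all 12 libraries, KO cultures alone, X and Y genes kept, and matched symbols only (1841 to 2667 higher, 1984 to 2674 lower). Leaving out each culture gave 1342 (without KO5) to 2248 (without WT6) higher and 1559 to 2343 lower. Interaction calls, 9 with a KO change above the WT change and 12 below, rose to 41 and 26 with limma voom and to 44 and 49 without a filter, and ran from 0 and 0 (without KO5 or KO6) to 125 and 96 (without KO3). Footprint calls, 721 higher and 901 lower, ran from 434 (without KO5) to 721 higher and from 538 (without WT4) to 826 lower. They came to 505 and 631 without KO6 and WT6, 758 and 745 with DESeq2, and 637 and 1065 without a filter. Footprint to RNA calls, 198 and 180, ran from 25 to 210 and from 22 to 231, lowest without KO5. The number of genes passing the filter changed too, in footprints from 4490 to 8186 with a culture left out, against 7354. These counts are thus not over the same genes, and the cause of their changes was not tested.

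For 131 named genes, 1009 values with a culture left out and 1386 under the other alternatives kept direction and call, of 2469 in all. The 3 genes that changed sign, Tfrc, Rplp0 and Mki67, had no call in the fit reported. Leaving out a culture gave log2 fold changes of -0.16 to 0.78 for Tfrc, -0.0259 to 0.13 for Rplp0 and -0.28 to 0.14 for Mki67, and Mki67 stood at 0.030 with upper-quartile scaling and 0.0026 without a filter. A call was lost somewhere for 11 genes, and Fth1 lost it also with RLE scaling (adjusted p = 0.0531). Tfrc, Cd83, Ddit3, Cd163, Rpph1 and Cx3cr1, not called in the fit reported, passed under some alternatives, Cx3cr1 with DESeq2 (adjusted p = 0.00141). Footprint depth in batch 3, 29561 to 223504 counts, limits the footprint results: simulated footprint changes of 1 (log2) were called in 39.2% of genes. Those genes too were drawn from above a floor of expected counts.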

Other observations

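Adhesion and matrix genes moved both ways. Of 26 tested, 6 were called higher and 14 lower, at a median log2 fold change of -0.54, and the 14 came to 9 when KO4, KO5 or KO6 was left out. Among alternative activation genes, which interleukin 4 induces, 6 of 9 were called lower and 1 higher, at a median of -1.25, and 3 were lower without KO5. PPAR-gamma and fatty acid handling genes were called higher in 2 of 9 and lower in none. Glucocorticoid-induced genes were called higher in 2 of 9 and lower in 3, and osteoclast and fusion genes higher in 2 of 8 and lower in 3. With any 1 culture left out, each of these 6 counts lay between 0 and 3. The share called was 22.2% in the PPAR-gamma list, 55.6% in the glucocorticoid list and 62.5% in the osteoclast list. It was 76.9% in the adhesion list and 77.8% in the alternative activation list. Over all tested genes 41.8% were called, 20.5% higher and 21.2% lower. The PPAR-gamma calls, all of them higher, were thus near the share over all tested genes. The stromal and endothelial list had 1 gene called each way of 2 tested, and the erythroid and megakaryocyte list had no call in the 1 gene tested.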
